A study of Mus musculus with 20 samples.

Results

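The genes of MHC class II antigen presentation were examined in the cecum of 20 C57BL/6 mice fed the Total Western Diet (TWD) with increasing levels of raw potato starch (RPS). The 10 genes are H2-Aa, H2-Ab1, H2-Eb1, H2-DMa, H2-DMb1, H2-DMb2, H2-Oa, H2-Ob, Cd74, and Ciita, and they were taken from the count table by symbol. They are 10 of the 19887 genes in the table, and all 10 were among the 15348 genes left after genes with low counts were removed. The mice were started on the TWD at weaning, given as 3 weeks of age in the series description and as 3 to 4 weeks in the study's methods, and ate it for 6 weeks, after which they stayed on the TWD (0% RPS) or received it with RPS added to 2, 5, or 10%, 5 mice per diet, for 3 more weeks. The TWD is a rodent diet composed after human Western intakes, and RPS is an uncooked starch of which a large part escapes digestion and reaches the cecum. The 0% RPS mice ate the same TWD throughout and are the control for each RPS diet. Sections of whole cecum were used, so each value is an average over epithelium, muscle, and immune cells. The labels give no sex for the mice, and the mice are named here by diet and by a number from 1 to 5 that does not pair mice of different diets.

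MHC class II molecules are heterodimers of an alpha and a beta chain that display peptides from the endosome to CD4+ T cells. The invariant chain, encoded by Cd74, fills the groove of a new class II molecule and guides it to the endosome. There the H2-DM dimer exchanges the remaining fragment of the invariant chain for peptide, and the H2-DO dimer binds to H2-DM and holds it back. Ciita is the transactivator that sits on class II promoters and sets their rate of transcription. The genes are expressed constitutively by B cells, dendritic cells, and macrophages and can be induced by interferon-gamma in epithelium, and H2-DO is known mainly from B cells. In the cecum most B cells lie in the lymphoid patch and in isolated follicles.

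The 8 H2 genes lie together on chromosome 17 in GRCm39, in the class II region of the MHC. H2-Oa (chr17:34311314-34314328) comes first, followed by H2-DMa (chr17:34338515-34358958), H2-DMb2 (chr17:34362197-34370529), and H2-DMb1 (chr17:34372046-34379204). H2-Ob (chr17:34457836-34473388), H2-Ab1 (chr17:34476663-34488393), H2-Aa (chr17:34493404-34506798, minus strand), and H2-Eb1 (chr17:34504236-34535648) follow, and all but H2-Aa are on the plus strand. Ciita is on the plus strand of chromosome 16 (chr16:10297923-10347694), and Cd74 is on chromosome 18.

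Class II promoters are known for an X box, which is bound by the RFX complex, and a Y box, which is bound by NF-Y. The window from 250 bases before to 50 bases after each start site was searched for a core of each box. The X core was written as ACNNATGA and the Y core as TGATTGG, each on both strands, and a pair was counted where the Y core followed the X core on the same strand after 15 to 25 bases, so that the cores did not overlap. The X core was in 7 of the 10 windows and in 7.96% of the windows of all 19827 annotated genes. The Y core was also in 7 of the 10, against 8.71% of all. The pair was in 5 of the 10 (H2-Ab1, H2-Eb1, H2-DMa, H2-DMb2, and H2-Ob) and in 10 of the 19827 windows, which is 0.0504%. The other 5 windows with the pair were those of Cab39l, H2ac7, H2bc7, Sox9, and Tsbp1.

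The stretch that holds the pair is shown for the 4 genes in which it lies outside annotated exons, 5′ to 3′ on the plus strand of GRCm39, with the X core and the Y core in capitals. These stretches are chr17:34482117-34482170 for H2-Ab1, chr17:34524743-34524796 for H2-Eb1, chr17:34364093-34364147 for H2-DMb2, and chr17:34457785-34457835 for H2-Ob.
H2-Ab1: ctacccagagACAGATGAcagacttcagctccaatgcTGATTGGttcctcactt
H2-Eb1: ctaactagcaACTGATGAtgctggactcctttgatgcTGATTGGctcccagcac
H2-DMb2: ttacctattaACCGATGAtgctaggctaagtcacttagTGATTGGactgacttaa
H2-Ob: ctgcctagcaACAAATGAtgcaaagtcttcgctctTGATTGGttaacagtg
The cores are separated by 19 bases in H2-Ab1 and H2-Eb1, by 20 in H2-DMb2, and by 17 in H2-Ob. With the last base before the start site counted as -1, the X core begins at -56, -60, -71, and -41 and the Y core at -29, -33, -43, and -16, in the same order. H2-DMa holds a pair with a gap of 20 bases, and H2-Aa a Y core at -50 without an X core. Neither core was found in the windows of Cd74 and Ciita. A match here is a description of the letters and not a test of binding.

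Total counts per mouse were between 14967798 and 42687283, and in all 40 same-diet pairs the counts differed by more than sampling noise (chi-square per degree of freedom between 13.6 and 136). A group of 3 libraries stood apart from the other 17, namely mouse 5 on 0% RPS, mouse 3 on 2% RPS, and mouse 4 on 5% RPS. Mitochondrial genes took 13.0 to 15.4% of their counts against 9.0 to 11.5% in the others, and the SD of log2 CPM about the median of each gene was 0.45 to 0.48 against 0.16 to 0.34. In these libraries the ratio of H2-Ab1 to H2-Aa counts was between 1.44 and 1.64, while it was between 0.76 and 0.95 in the other 17, although both chains form the same dimer. No library of the 10% RPS group stood apart, and values without these libraries are given beside the main results. Epithelial markers (Epcam, Vil1, Krt8, and others, 8 genes) had a summed level of 25490 to 44241 CPM, and none of the 8 was at 0 in any mouse, so the defining markers of gut tissue were present. B cell markers (16 genes) summed to between 14.3 and 606 CPM, with none at 0 in any mouse.

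Reads of 50 bases cannot always be assigned to 1 member. H2-DMb1 and H2-DMb2 are neighbouring copies of the H2-DM beta chain, and 27.2% of the 50-base stretches of the H2-DMb1 transcript and 30.5% of those of H2-DMb2 also occur in the other or in other transcripts, so their separate values are uncertain. The other 8 members shared no stretch on the same strand. On the opposite strand, 23.6% of the H2-Oa stretches match BC051537, 17.4% of those of H2-DMb1 and 18.2% of those of H2-DMb2 match mainly Gm64535, 4.98% of those of H2-Eb1 match Gm20513, and 2.45% of those of Ciita match mainly Dexi. The libraries were stranded, but the strand setting of the counting is not given in the sources used here.

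Levels of the 10 genes were first compared with each other as CPM (counts scaled to library size, with TMM factors) per kb of the canonical transcript. The median over 20 mice was highest for Cd74, at 122 CPM per kb. It was followed by the chains of the peptide-presenting dimers, with H2-Aa at 78.5, H2-Ab1 at 60.0, and H2-Eb1 at 40.9 CPM per kb. In C57BL/6 mice H2-Eb1 has no partner chain at the cell surface, because the H2-Ea gene is defective in this strain. The H2-DM chains came next, at 12.7 for H2-DMa, 5.56 for H2-DMb1, and 3.36 CPM per kb for H2-DMb2, and the H2-DO chains at 2.76 for H2-Ob and 1.24 for H2-Oa. The transactivator Ciita was lowest, at 0.255 CPM per kb. Cd74 was above H2-Aa in 20 of 20 mice, H2-Ab1 above H2-Eb1, H2-Eb1 above H2-DMa, H2-DMa above H2-DMb1, and H2-Oa above Ciita likewise in 20 of 20. H2-Aa was above H2-Ab1 in 17 mice and H2-Ob above H2-Oa in 18. The order of H2-DMb1 and H2-DMb2 held in 14 mice and that of H2-DMb2 and H2-Ob in 11, so these neighbours were not separated beyond the spread between mice.

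The genes also differed in how far they ranged between mice. H2-DMa had the smallest range, from 9.91 to 30.5 CPM (3.08-fold), and H2-Eb1 ranged 4.20-fold, H2-Aa 5.20-fold, H2-DMb1 5.92-fold, H2-Ab1 6.07-fold, Cd74 6.93-fold, and Ciita 8.31-fold. The ranges of H2-DMb2 (23.9-fold), H2-Oa (27.3-fold), and H2-Ob (50.6-fold) were wider. The lowest count was 13 for H2-Oa in mouse 2 on 2% RPS and 21 for Ciita in mouse 3 on 0% RPS, so every member was above the floor of 3 counts in every mouse.

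To find whether RPS changed class II expression, each RPS diet was compared with 0% RPS. All 10 genes had a higher mean in the mice fed 10% RPS than in those fed 0% RPS, by 0.70 (H2-DMa) to 1.86 (H2-Ob) on the log2 scale, but none passed the threshold of the edgeR quasi-likelihood test (adjusted p at most 0.05 and at least 1.5-fold). The median of the 10 differences was 1.09, while the median over all genes tested was 0.00. At an unadjusted p under 0.05 there were 5 of the 10, all higher, where 9.74% of all genes tested were higher at that p. Over all genes, 160 passed the threshold, which is 1.04%. DESeq2's Wald test also called none of the 10, while it called 2.46% of all genes.

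The chains of the classical dimer showed the pattern. H2-Aa was at 87.7, 156, 60.0, 64.3, and 40.4 CPM in mice 1 to 5 on 0% RPS and at 154, 64.9, 210, 171, and 188 CPM in mice 1 to 5 on 10% RPS. Mice 1, 3, 4, and 5 on 10% RPS were high and mouse 2 was low, and on 0% RPS mouse 2 was as high as they were, so the groups overlapped. The log2 fold change of H2-Aa was 0.95 ± 0.36 (SE, n = 5 per diet, adjusted p = 0.164, edgeR). H2-Ab1, its beta chain, was between 47.0 and 136 CPM in the controls and between 61.6 and 186 CPM in the mice fed 10% RPS, and its log2 fold change was 0.95 ± 0.47 (adjusted p = 0.278). H2-Eb1 ranged from 39.4 to 116 CPM in the controls and from 51.3 to 166 CPM with 10% RPS, and 4 of the 5 mice fed 10% RPS were above every mouse fed 0% RPS (log2 fold change 0.97 ± 0.40, adjusted p = 0.192).

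Cd74, the invariant chain, was at 192, 412, 102, 109, and 105 CPM on 0% RPS. On 10% RPS it was at 348, 122, 485, 412, and 447 CPM. Mouse 2 was again the exception on both diets, and the mean ± SD was 184 ± 133 CPM on 0% and 363 ± 144 CPM on 10% RPS. The log2 fold change of Cd74 was 0.98 ± 0.55 (adjusted p = 0.333). Ciita was at 1.73, 3.86, 0.79, 1.11, and 0.72 CPM on 0% RPS and at 4.53, 1.76, 5.12, 5.09, and 5.44 CPM on 10% RPS. All 4 high mice on 10% RPS were above the highest mouse on 0% RPS, and the log2 fold change of Ciita was 1.43 ± 0.53 (adjusted p = 0.153).

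**Figure D1:**
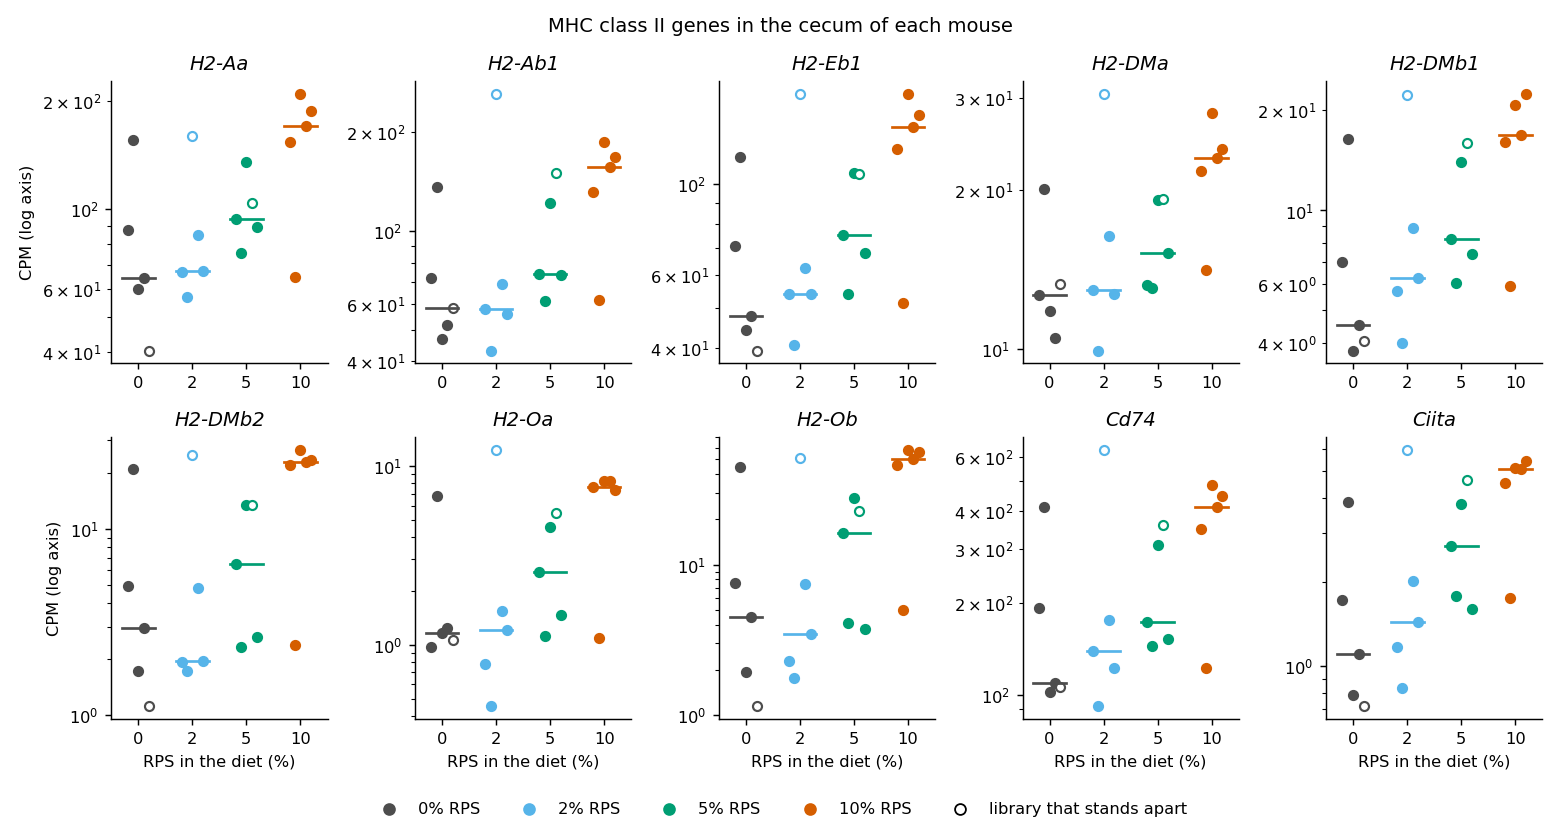
Level of each of the 10 genes (CPM, log axis) in each mouse by the percentage of RPS in the diet; bars are the medians of 5 mice, and open symbols are the 3 libraries that stand apart. On 10% RPS 4 mice are high and mouse 2 is low for every gene, while mouse 2 on 0% RPS and mouse 3 on 2% RPS are high.

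Among the peptide editors, H2-DMa had the smallest difference of the 10 genes. It was at 12.6, 20.2, 11.8, 10.5, and 13.3 CPM on 0% RPS and at 21.8, 14.1, 28.0, 23.0, and 24.01 CPM on 10% RPS, so that 4 of the latter 5 were above all controls. The log2 fold change of H2-DMa was 0.70 ± 0.26 (adjusted p = 0.145), the lowest adjusted p of the 10. The beta chains had log2 fold changes of 1.2 ± 0.50 (H2-DMb1, adjusted p = 0.197) and 1.63 ± 0.91 (H2-DMb2, adjusted p = 0.336).

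The H2-DO chains had among the largest differences and the largest errors. H2-Ob was at 7.52, 44.8, 1.95, 4.50, and 1.15 CPM on 0% RPS and at 46.2, 5.03, 58.0, 50.6, and 55.8 CPM on 10% RPS. H2-Oa was at 0.98, 6.77, 1.16, 1.24, and 1.06 CPM on 0% RPS and at 7.67, 1.08, 8.22, 8.25, and 7.35 CPM on 10% RPS. In both, mouse 2 on 10% RPS lay within the lower mice of the 0% RPS group, and mouse 2 on 0% RPS lay just under the 4 high mice on 10% RPS. The log2 fold changes were 1.86 ± 1.06 (H2-Ob, adjusted p = 0.344) and 1.55 ± 0.84 (H2-Oa, adjusted p = 0.319).

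With 5 and 2% RPS none of the 10 genes passed the threshold, by edgeR or by DESeq2's Wald test, and by both none had an unadjusted p under 0.05, where 6.74% of all genes were higher at that p with 5% RPS and 2.58% with 2% RPS. With 5% RPS the log2 differences from 0% RPS were between 0.22 and 0.83 with a median of 0.34 (adjusted p 0.542 to 0.946), and 0.195% of all genes passed by edgeR and 1.41% by DESeq2. Ciita had the highest of these, at 0.83 ± 0.53. With 2% RPS the differences were between 0.09 and 0.57 with a median of 0.31 (adjusted p 0.959 to 0.994), and 0% of all genes passed by edgeR, where 886 genes had an unadjusted p under 0.05 and DESeq2 called 5. Mouse 3 on 2% RPS, a library that stands apart, was the highest of all 20 mice for 6 genes, H2-Ab1 (262 CPM), H2-Eb1 (166 CPM), H2-DMa (30.5 CPM), H2-Oa (12.3 CPM), Cd74 (634 CPM), and Ciita (5.96 CPM). The 2% RPS differences were all below 0 without the 3 libraries that stand apart, from -1.93 to -0.08 with a median of -0.43, and the 5% RPS differences were between -0.32 and 0.40.

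Because the diets form a dose series, the counts were also fitted by the edgeR model with percent RPS as a number. The slopes were between 0.06 and 0.19 on the log2 scale per percent RPS, and 7 of the 10 had an unadjusted p under 0.05 (all rising, against 9.37% of all genes). None had an adjusted p of at most 0.05 (0.112 to 0.311, edgeR), while 1.11% of all genes did. DESeq2's Wald test called none of the 10 and 4.84% of all genes. The calls over all genes also depended on the mice in the fit. Without mouse 1 on 10% RPS 0% of all genes passed for the trend. For 10% against 0% RPS 0.0907% of all genes passed without mouse 3 on 10% RPS. None of the 10 members passed in these 2 fits, while other fits gave more calls. Without the 3 libraries that stand apart H2-DMa and Ciita passed, as did 5.8% of all genes. Without mouse 3 on 2% RPS alone 6 of the 10 passed (H2-Aa, H2-Ab1, H2-Eb1, H2-DMa, H2-DMb1, and Ciita), as did 4.37% of all genes. When mouse 2 on 0% RPS was left out, H2-Aa and 1.66% of all genes passed. For 10% against 0% RPS, 3 genes (H2-Aa, H2-DMb1, and Ciita) passed the threshold without mouse 2 on 0% RPS, as did 2.23% of all genes. Without the 3 libraries that stand apart none of the 10 passed in that comparison (adjusted p 0.0629 to 0.307), while 2.07% of all genes did.

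The relation to B cell content was examined with a B cell index, the mean log2 CPM of Cd79a, which encodes a signalling chain of the B cell receptor, and Ms4a1, which encodes CD20. The lowest index was -0.22 (mouse 2 on 2% RPS) and the highest 5.70 (mouse 3 on 10% RPS), with no gap between neighbouring mice wider than 0.84, so the mice were treated as 1 range. In mice 1 to 5 the index was 2.69, 5.38, 0.36, 2.05, and -0.02 on 0% RPS and 5.29, 1.63, 5.70, 5.42, and 5.63 on 10% RPS. On 2% RPS it was 0.12, -0.22, 5.69, 2.93, and 0.96, and on 5% RPS 3.77, 0.57, 4.50, 4.53, and 1.02. The same mice were high and low as for the class II genes, with mouse 2 on 10% RPS low and mouse 2 on 0% RPS and mouse 3 on 2% RPS high.

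The difference of the index between 10 and 0% RPS was 2.64 (mean ± SD, 4.73 ± 1.74 against 2.09 ± 2.16) with p = 0.103 in a two-sided exact permutation test, in which the smallest possible p is 0.00794. Without mouse 2 on 10% RPS the difference was 3.42 (exact p = 0.0238), and without mouse 2 on 0% RPS it was 3.46 (exact p = 0.0317). With any of the other 8 mice left out it was between 2.11 and 2.79 (exact p between 0.103 and 0.143), also without the control mouse that stands apart. In whole tissue a greater number of B cells in the section and more RNA of these genes per cell cannot be told apart.

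Every one of the 10 class II genes followed the index. In a model with diet, so that mice were compared within their diet, all 10 had a positive slope with an adjusted p of at most 0.05, while 4.84% of all genes tested did. The slope differed between the members. It was highest for the genes of H2-DO and for H2-DMb2. On the log2 scale per unit of the index it was 0.83 for H2-Ob (95% interval 0.77 to 0.89), 0.71 for H2-DMb2 (0.65 to 0.78), and 0.62 for H2-Oa (0.51 to 0.72). The slopes of Ciita (0.41, interval 0.35 to 0.47), Cd74 (0.39, 0.32 to 0.45), and H2-DMb1 (0.37, 0.31 to 0.43) were lower, and their intervals did not overlap those of the first 3. H2-Ab1 (0.32, 0.25 to 0.39), H2-Eb1 (0.29, 0.24 to 0.34), and H2-Aa (0.26, 0.21 to 0.32) came next. H2-DMa had the lowest slope, 0.17 (0.12 to 0.23). A slope of 1 would mean a gene that changes as much as Cd79a and Ms4a1 do, and the interval of every member was below 1.

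The adjusted p of the slopes was between 5.8e-15 (H2-Ob) and 5.77e-05 (H2-DMa) by edgeR. Without the 3 libraries that stand apart all 10 slopes still passed, as did 3.8% of all genes in either direction, and were between 0.16 (H2-DMa, adjusted p = 0.00112) and 0.82 (H2-Ob). The index made of the 14 other B cell markers in place of Cd79a and Ms4a1 also gave 10 of 10, and 5.56% of all genes in either direction.

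Across all 20 mice Pearson's r between a member and the index was between 0.88 (H2-DMa) and 0.99 (H2-Ob), and Spearman's rho between 0.86 (H2-DMa) and 0.99 (H2-DMb2). Each permutation p was 1e-05, the smallest that 100000 permutations can give, and adjusted over all 15348 genes it was 0.000417 for r and 0.000484 for rho. With a positive r, 5.3% of all genes passed at an adjusted p of 0.05. After the mean of each diet was removed, r was between 0.85 (H2-DMa, adjusted permutation p = 0.00914) and 0.99 (H2-Ob), and all 10 passed, against 4.11% of all genes. Without the 2 mice farthest from the median of the index (mouse 2 on 2% RPS and mouse 3 on 10% RPS), r was between 0.85 and 0.99. Without the 3 libraries that stand apart it was between 0.88 and 0.99, and with the diet means removed as well it was between 0.83 and 0.99, where H2-DMa no longer passed (adjusted permutation p = 0.0643) and the share of all genes that passed with a positive r was 1.98%.

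**Figure D2:**
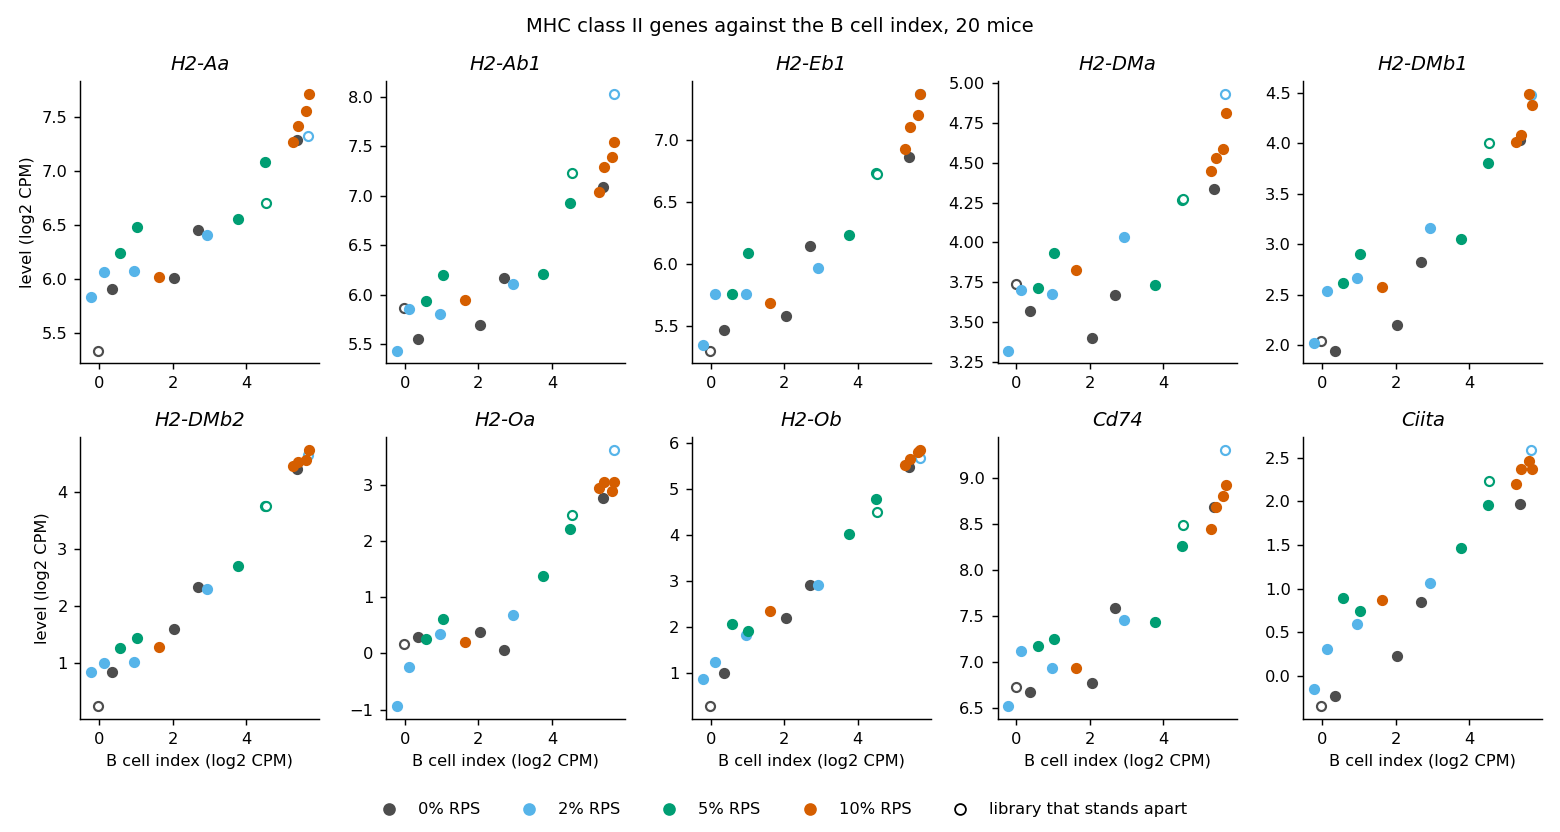
Level of each gene (log2 CPM) against the B cell index (mean log2 CPM of Cd79a and Ms4a1) in 20 mice, by diet, with the 3 libraries that stand apart as open symbols. All 10 genes are higher in mice with a higher index, and H2-Ob, H2-DMb2, and H2-Oa span the widest range.

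The spread between mice on the same diet narrowed once the index was taken into account. For H2-Ob the SD of log2 CPM within diets was 1.73 before and 0.25 after a line on the index was fitted within diets, and for H2-DMb2 it was 1.49 and 0.29. Cd74 went from 0.86 to 0.32 and Ciita from 0.85 to 0.19. H2-DMa, whose slope was lowest, went from 0.42 to 0.23.

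When the index was added to the diet model, the differences between 10 and 0% RPS became smaller for all 10 genes. They were between 0.04 and 0.51 on the log2 scale, with a median of 0.23 in place of 1.09, and none passed the threshold (0.645% of all genes did), with H2-Ob and Ciita, 2 of the 10, higher at an unadjusted p under 0.05, where 8.95% of all genes were higher at that p. Cd74 went from 0.98 to 0.04 ± 0.20, H2-Oa from 1.55 to 0.07 ± 0.32, and H2-Ab1 from 0.95 to 0.10 ± 0.21. H2-Ob was at 0.44 ± 0.16 (adjusted p = 0.158). Ciita had the largest remaining difference, 0.51 ± 0.17 with 10% RPS (adjusted p = 0.125), 0.67 ± 0.16 with 5% RPS (adjusted p = 0.0535), and 0.48 ± 0.16 with 2% RPS (adjusted p = 0.668). The 3 RPS diets share the same control mice in these comparisons. These values depended on the 3 libraries that stand apart. Without them the differences with 10% RPS given the index were between 0.18 (Cd74) and 0.56 (Ciita, adjusted p = 0.0847) with a median of 0.36, and none passed, while 1.87% of all genes did. H2-Ab1 was at 0.35 ± 0.16 (adjusted p = 0.230) in place of 0.10 and H2-Oa at 0.37 ± 0.29 in place of 0.07, while H2-Aa (0.24) and H2-Ob (0.39) were lower than with all mice.

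**Figure D3:**
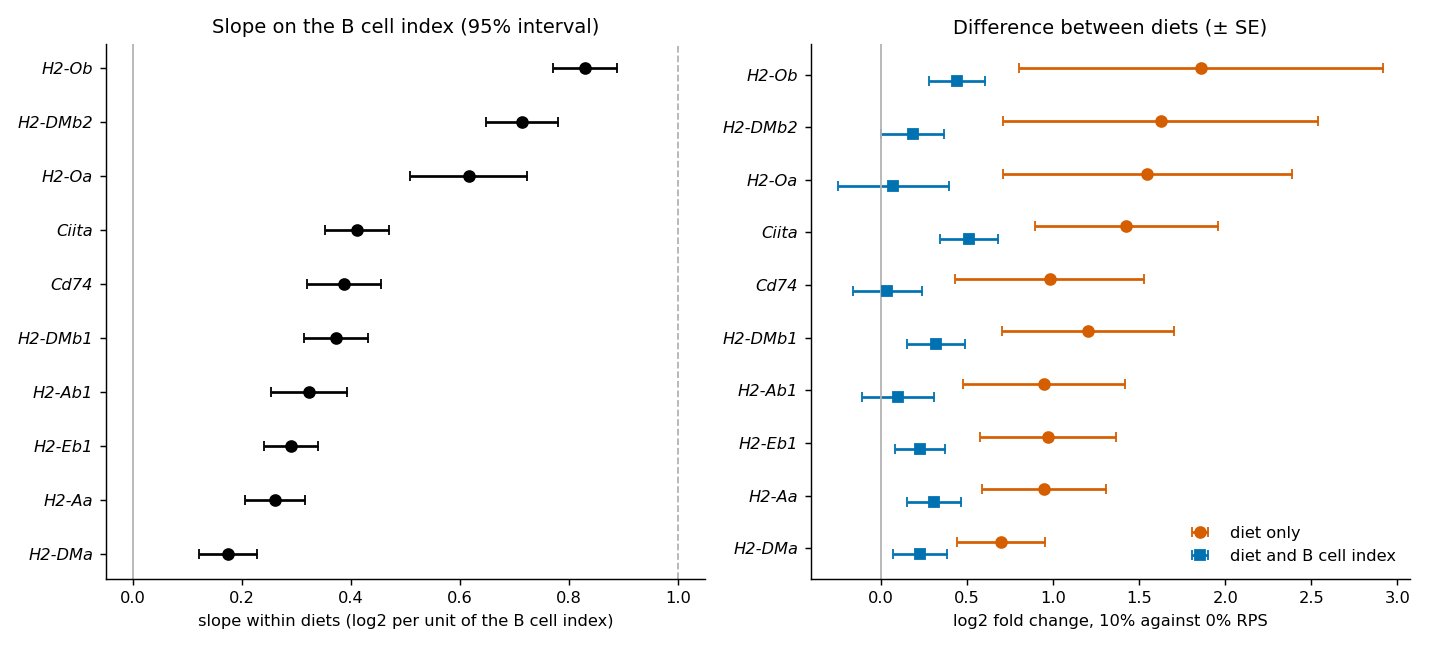
Left, slope of each gene on the B cell index within diets (log2 per unit of the index, bars are 95% intervals, dashed line at 1). Right, log2 fold change of 10% against 0% RPS (bars are SE) in the model with diet only and in the model with diet and the index, where the median falls from 1.09 to 0.23.

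Because H2-DO acts on H2-DM, the ratio of H2-DO (H2-Oa and H2-Ob) to H2-DM (H2-DMa, H2-DMb1, and H2-DMb2) was computed per mouse from summed CPM per kb. It was between 0.0813 and 0.534. In mice 1 to 5 the ratio was 0.185, 0.508, 0.119, 0.187, and 0.0859 on 0% RPS and 0.515, 0.152, 0.491, 0.534, and 0.503 on 10% RPS. Mouse 2 on 0% RPS had the ratio of the 4 high mice on 10% RPS, and mouse 2 on 10% RPS had that of the lower mice on 0% RPS.

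The log2 ratio of H2-DO to H2-DM differed by 1.17 between the 2 diets (-1.32 ± 0.78 against -2.49 ± 0.97, SD), with p = 0.111 in a two-sided exact permutation test. It was 1.52 when mouse 2 on 10% RPS was left out and 1.55 when mouse 2 on 0% RPS was (exact p = 0.0317 for both). With any of the other 8 mice of these diets left out it was between 0.91 and 1.19 (exact p between 0.111 and 0.151). Over 20 mice the log2 ratio had r = 0.98 and rho = 0.94 with the B cell index. These are a description and not a further test, since the slopes of H2-Ob (0.83) and H2-DMa (0.17) on the same index already fix a positive relation. The slopes do not divide by dimer, as that of H2-DMb2 (0.71) is near those of the H2-DO chains.

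The ratio of the beta chains H2-DMb2 to H2-DMb1, on CPM per kb, was compared with the index as a description, without a test. It was 0.27 in mouse 5 on 0% RPS, which had the second lowest index, and 1.31 in mouse 1 on 10% RPS. In the 6 mice with an index over 5 it was between 1.01 and 1.31, and in the 8 mice with an index under 2 it was between 0.27 and 0.44. The ratio was thus higher in the mice with a high index, and the reads shared between these copies leave its exact size uncertain.

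**Figure D4:**
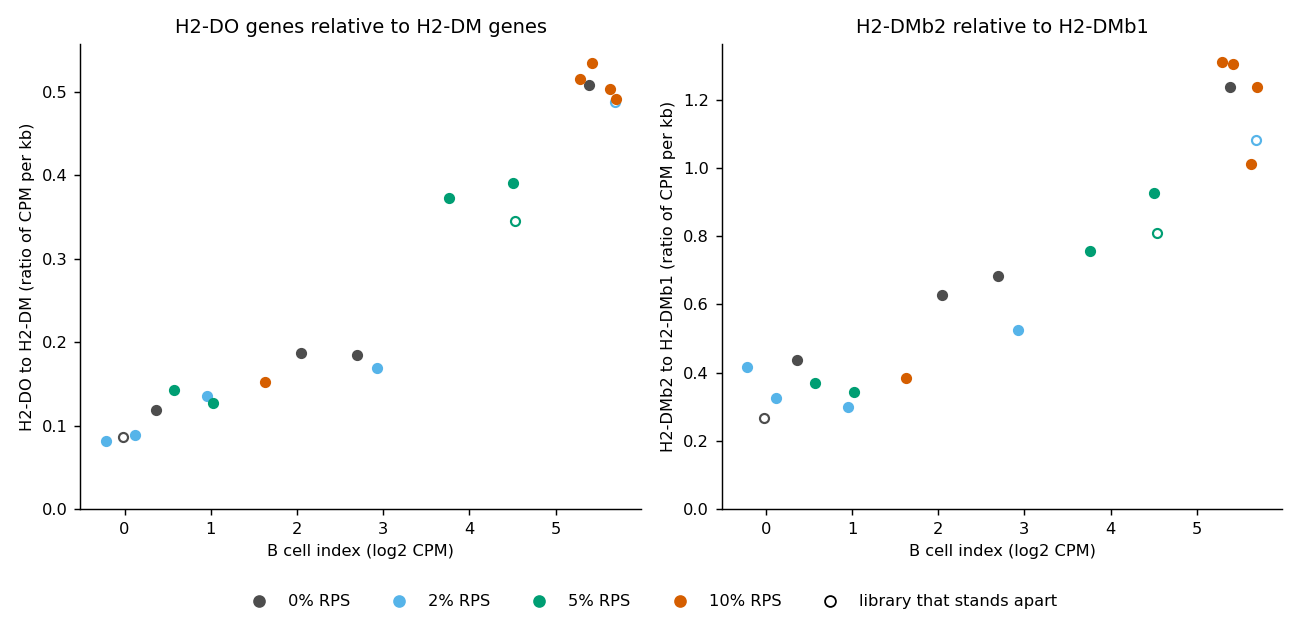
Ratio of the H2-DO genes to the H2-DM genes (left) and of H2-DMb2 to H2-DMb1 (right), both from CPM per kb, against the B cell index in 20 mice, by diet, with the 3 libraries that stand apart as open symbols. The H2-DO to H2-DM ratio is between 0.0813 and 0.152 at an index under 2 and between 0.488 and 0.534 at an index over 5.

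Other cells that carry class II were examined through their markers. For the counts in this and the following lists, 9.74% of all genes were higher with 10% RPS at an unadjusted p under 0.05. A positive slope on the B cell index passed for 4.84% of all genes, and 1.04% passed the threshold with 10% RPS. Macrophage markers (11 genes, among them Adgre1, Csf1r, and C1qa) were all higher with 10% than with 0% RPS, with a median of 0.32 and none past the threshold (3 at an unadjusted p under 0.05, edgeR). They summed to 221 to 407 CPM in the controls and 327 to 457 CPM with 10% RPS, and none of the 11 was at 0 in any mouse. Lyz2, encoding lysozyme, had the largest difference among them (1.11 ± 0.42, adjusted p = 0.160), and 8 of the 11 had a positive slope on the B cell index within diets, 6 of them past the threshold. When the mean log2 CPM of the macrophage markers was added to the model with diet and the B cell index, all 10 class II genes had a positive slope on it, from 0.67 to 1.40. None had an adjusted p of at most 0.05 (0.243 to 0.956, edgeR), 7 had an unadjusted p under 0.05 against 3.19% of all genes that were higher at that p, and 0.0326% of all genes passed. The lowest were Cd74 (1.40 ± 0.31, adjusted p = 0.243) and H2-DMb1 (1.18 ± 0.27, adjusted p = 0.300).

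Dendritic cell markers (10 genes, among them Itgax and Zbtb46) summed to between 20.3 and 42.4 CPM on 0% RPS and between 27.4 and 48.4 CPM on 10% RPS, with none at 0 in any mouse. All 10 were higher with 10% RPS (median 0.44), with none past the threshold and 2 at an unadjusted p under 0.05, against 9.74% of all genes. Of the 10, 4 followed the B cell index within diets, against 4.84% of all genes. Flt3, the receptor for a growth factor of dendritic cells, differed by 0.96 ± 0.35 (adjusted p = 0.138) and Xcr1, a chemokine receptor of cross-presenting dendritic cells, by 0.65 ± 0.27 (adjusted p = 0.201). Of the 16 B cell markers, which include Cd79a and Ms4a1, all were higher with 10% RPS, with a median of 2.04, none past the threshold and 1 at an unadjusted p under 0.05, and all 16 followed the index. Cr2, the complement receptor of B cells and follicular dendritic cells, had a log2 difference of 2.32 ± 1.31 (adjusted p = 0.338).

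Plasma cells turn class II off. Of the 6 plasma cell markers tested 4 were higher with 10% RPS (median 0.36), none passed the threshold in either direction, and none followed the B cell index. Tnfrsf17, the receptor for survival signals of plasma cells, differed by 0.83 ± 0.44 (adjusted p = 0.301). Sdc1, which is also expressed by epithelium, had a log2 difference of -0.55 ± 0.13 with an adjusted p of 0.0376, short of 1.5-fold. Of 4 tested markers of group 3 innate lymphoid cells, of which the list has 7, only Il7r followed the index (slope 0.27, adjusted p = 0.00613), and none passed with 10% RPS. Of the 8 epithelial markers 7 were lower with 10% RPS (median -0.16, 3 lower at an unadjusted p under 0.05), among them Car1 (-0.43 ± 0.14, adjusted p = 0.0956) and Cdh1 (-0.22 ± 0.08, adjusted p = 0.147). The other, the chloride and bicarbonate exchanger Slc26a3, passed in the opposite direction (0.61 ± 0.16, adjusted p = 0.0487), and none of the 8 followed the index. Of the 5 smooth muscle markers all were higher (median 0.52) and 1 passed, Actg2 (1.28 ± 0.30, adjusted p = 0.0358), and none followed the index. The part of the other cell types in the class II differences was not tested beyond these models.

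The factors that bind class II promoters together with CIITA were examined next. Of 7 genes of the X and Y box complexes none passed with 10% RPS (1 higher and 2 lower at an unadjusted p under 0.05) and none followed the index, against 10 of 10 members. Rfx5, the DNA-binding subunit of the RFX complex, had a log2 difference of 0.36 ± 0.14 (adjusted p = 0.176), and Rfxank (-0.19 ± 0.09, adjusted p = 0.230) and the NF-Y subunit Nfyc (-0.28 ± 0.10, adjusted p = 0.129) were lower. Of the 8 genes tested in the interferon-gamma axis none passed with 10% RPS. At an unadjusted p under 0.05, 3 were higher, against 9.74% of all genes. Irf1, a transcription factor induced by interferon-gamma, differed by 0.41 ± 0.15 (adjusted p = 0.131), Jak2, a kinase of its receptor, by 0.27 ± 0.09 (adjusted p = 0.113), and Irf8 by 0.55 ± 0.21 (adjusted p = 0.169). Jak1 alone of the 8 followed the index, with a slope of 0.04. Ifng itself did not pass the filter on low counts and was not tested.

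In endosomal processing and class II turnover, none of 15 genes passed with 10% RPS (2 higher and 2 lower at an unadjusted p under 0.05), and the median difference was 0.01. Marchf1, the ligase that removes class II from the surface of B cells and dendritic cells, had the largest difference (1.28 ± 0.49, adjusted p = 0.161) and followed the index with a slope of 0.36 (adjusted p = 3.87e-07). Ctse and Ctsh, which encode cathepsins, also followed it, with slopes of 0.31 and 0.10. Ctss, the cathepsin that trims the invariant chain, did not pass in either test (0.30 ± 0.12 with 10% RPS, adjusted p = 0.161, and a slope of 0.02, adjusted p = 0.677). Among partners of CD74, Cxcr4 followed the index (slope 0.66, adjusted p = 1.5e-09), while its ligand Mif (slope 0.00, adjusted p = 0.965) and Cd44 (0.00, adjusted p = 0.945) did not pass.

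Further genes act at the synapse between antigen-presenting cells and T cells. Of 7 costimulatory genes all were higher with 10% RPS (median 0.97), 5 followed the index, and 1 passed the threshold. This was Cd274, which encodes the inhibitory ligand PD-L1, with a log2 fold change of 0.87 ± 0.19 (adjusted p = 0.0289). Its slope on the index was 0.08 (adjusted p = 0.152), and with the index in the model its difference was 0.68 (adjusted p = 0.0683). Icosl (1.06 ± 0.38, adjusted p = 0.143) had a slope of 0.27 (adjusted p = 9.1e-07). Of 9 genes of the T cell side, which are the CD4 and LAG3 receptors for class II, T cell receptor and CD3 chains, and costimulatory receptors, 8 followed the index and none passed with 10% RPS (2 at an unadjusted p under 0.05). The shares of all genes were 4.84% for the index and 9.74% for that p. The nearest were Ctla4 (1.71 ± 0.50, adjusted p = 0.0746) and Cd28 (1.47 ± 0.46, adjusted p = 0.0888), the inhibitory and the activating receptor for the B7 ligands.

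Class I presentation, which loads peptides from the cytosol, served for comparison. None of its 11 genes passed with 10% RPS, 10 were higher (5 at an unadjusted p under 0.05), and the median difference was 0.35 against 1.09 for class II. On the B cell index, 4 of 11 had a positive slope past the threshold, with a median slope of 0.02 against 0.38 for the class II genes. These were Nlrc5, which is the class I counterpart of Ciita (slope 0.30), Psmb8 (0.20), Tap1 (0.17), and Tap2 (0.08).

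The genes most like the class II genes over the 20 mice were sought by Pearson's r with the mean of the 10 members, each scaled to unit variance. The 10 most alike had r between 0.985 and 0.990 and were, in order, Il21r, Cd72, Slamf6, Ly6d, A630001G21Rik, Wdfy4, Hcls1, Arhgap45, Pld4, and Btk. For comparison, the r of a single member with the mean of the other 9 was between 0.945 (H2-DMa) and 0.993 (H2-Eb1). Without the 3 libraries that stand apart the 10 genes had r between 0.981 and 0.990. With 10% RPS their log2 differences were between 0.92 (Pld4) and 2.00 (Slamf6), and none passed the threshold (adjusted p 0.222 to 0.412). Their slopes on the B cell index were between 0.33 (Pld4) and 0.74 (Ly6d), within the range of the class II genes. These genes were picked for their likeness to members that follow the index, so the values are a description and not a further test.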

How the data were processed

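RNA from sections of cecum of 20 mice was made into stranded poly(A) libraries and sequenced as single reads of 50 bases. The authors trimmed low-quality nucleotides, used the CLC Genomics Workbench to map reads to GRCm39, and deposited raw, not normalized counts for each gene and mouse. The annotation release, the strand setting, and how multi-mapping reads were handled are not given in the sources used here. Diets were taken from the sample labels, and all 20 columns were used. GENCODE M39 named 19827 of the 19887 genes; the start sites and promoter windows were read from it and from the GRCm39 genome, and 60 genes were not found.

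The counts were fitted by edgeR 4.0.16 under R 4.3.3 (filterByExpr, minimum count 10, minimum total 15, TMM, quasi-likelihood test with robust empirical Bayes, 4 diets in 1 fit). A gene was called at 1.5-fold or more and an adjusted p (Benjamini-Hochberg, over the 15348 genes tested) of 0.05 or less; trends and slopes on an index had no fold threshold. Log2 CPM used a prior count of 2. Correlations, ratios, and permutation tests were computed in Python 3.11.15 with numpy 2.4.6. The edgeR model was also run on simulated counts, whose results are not given here. Alternatives were DESeq2's size factors, DESeq2 1.42.0 with its Wald test, no filter, 10 counts in every mouse, no robust step, the B cell index or 1 surrogate variable (sva 3.50.0) as a covariate, only the 2 diets compared, no fold threshold, the rank of the dose, an index of the other B cell markers, a prior count of 0.5, and each mouse left out. Leaving out the 3 libraries that stand apart, the macrophage index, the H2-DO to H2-DM ratio, and the test of the B cell index were added after the data were seen. The members, gene lists, and tests were chosen with earlier results of these data known. Named genes are the 10 members, Cd79a and Ms4a1, the genes of each list past the threshold or with the 3 lowest p for 10% against 0% RPS, and the 10 most like the members; Jak1, Il7r, Ctse, Ctsh, Nlrc5, and Tap2 were named after their values were seen, and Adgre1, Csf1r, C1qa, Itgax, Zbtb46, Epcam, Vil1, and Krt8 only show what a list holds.

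The median gene tested had 514 counts per mouse, and the floor of 3 counts was between 0.0698 and 0.190 CPM. This floor takes in counting error alone, as no molecular identifiers were used. The p-values measure the spread between the 5 samples of a diet, each taken as 1 mouse.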

Additional observations from a re-analysis of the deposited data

Results flagged for a closer look

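Within each diet, a mouse was marked where its distance from the nearest of the other 4 was more than 0.71 of the whole range of CPM. This was so in 19 of the 40 sets of 5 mice (10 genes on 4 diets), while chance marks about 1 in 20 for normally distributed values. CPM are skewed and the 10 genes move together, so that rate does not apply closely here. On log2 CPM 10 of the 40 sets were marked, 6 of them also on CPM, and 8 of the 10 were mouse 2 on 10% RPS. All marks on either scale belonged to 3 mice.

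Mouse 3 on 2% RPS, a library that stands apart, was far above the other 4 for 9 genes. Its levels were 160 CPM for H2-Aa, 262 CPM for H2-Ab1, 166 CPM for H2-Eb1, 22.3 CPM for H2-DMb1, and 25.1 CPM for H2-DMb2. They were 12.3 CPM for H2-Oa, 51.1 CPM for H2-Ob, 634 CPM for Cd74, and 5.96 CPM for Ciita. Its B cell index of 5.69 was also the highest of its diet.

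Mouse 2 on 0% RPS was far above the others of its diet for 6 genes, at 136 CPM for H2-Ab1, 20.2 CPM for H2-DMa, 16.4 CPM for H2-DMb1, 21.1 CPM for H2-DMb2, 6.77 CPM for H2-Oa, and 44.8 CPM for H2-Ob. Its mitochondrial share was 9.26%, within the range of the other libraries.

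Mouse 2 on 10% RPS was far below the others of its diet for 4 genes, at 2.38 CPM for H2-DMb2, 1.08 CPM for H2-Oa, 5.03 CPM for H2-Ob, and 1.76 CPM for Ciita. Its B cell index was 1.63 and those of the other 4 were 5.29 to 5.70.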

How the results depend on the processing

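The association of the members with the B cell index within diets was past the threshold for 10 of 10 genes under every alternative run, with each mouse left out, and without the 3 libraries that stand apart. The count of correlations was 10 under every alternative except with the 3 libraries left out and diet means removed, where it was 9. With a positive r 1.98% of all genes passed there, against 4.11 to 5.64% under the others. For 10% against 0% RPS the count was 0 under 10 of the 11 other alternatives and 1 (H2-DMa) with 1 surrogate variable, where 2.55% of all genes passed. It was between 0 and 3 with each mouse left out, where between 0.0907 and 2.23% of all genes passed. For the linear trend the count was 2 (H2-DMa and Ciita) with 1 surrogate variable, where 7.92% of all genes passed. It was also 2 without the 3 libraries that stand apart, where 5.8% passed. With each mouse left out it was between 0 and 6, where between 0 and 4.37% of all genes passed. For 5 and 2% RPS, and for the macrophage index, the count was 0 throughout. With the fold threshold at most 1.41% of all genes passed with 5% RPS and 0.027% with 2% RPS, both by DESeq2. For the macrophage index the share was at most 0.0389%. The log2 differences of all 10 genes with 10% RPS stayed above 0 under all alternatives. With each mouse left out they were between 1.58 and 3.52 for H2-Ob and between 1.37 and 2.86 for H2-DMb2. For H2-Oa they were between 1.36 and 2.55, and for H2-DMa between 0.61 and 0.88. The index difference between 10 and 0% RPS was between 2.11 and 3.46 and that of the log2 H2-DO to H2-DM ratio between 0.91 and 1.55 with each mouse left out. The median difference with 2% RPS was between -0.32 and 0.93 with each mouse left out, the lowest when mouse 3 on 2% RPS and the highest when mouse 2 on 0% RPS was missing. With 5% RPS the median difference was between 0.16 and 0.97 with each mouse left out. The causes of these shifts were not tested. No paired analysis was possible because the mouse numbers do not link mice of different diets. Precision is limited by 5 mice per diet and, for H2-Oa and Ciita, by counts as low as 13 and 21.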
